A study of Homo sapiens with 12 samples.

Results

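The 47 genes described here carry out DNA replication and mitosis. They were chosen by gene name, 21 for replication and 26 for mitosis, and all 47 were found among the 58302 genes of the expression table. RNA was sequenced from 12 libraries of 3 established prostate cell lines, 4 libraries each. BPH-1 is a benign prostate epithelial line, and PC3 and DU145 are prostate cancer (PCa) lines. All 3 lines carried the WT label, grew in the same medium with serum, and no treatment is named. The labels give no age, batch or day, and nothing in them says that the libraries of a line came from separate cultures, so the p-values measure only the spread between these libraries, which may be technical. Each group is 1 established line, so a difference between groups is a difference between lines. The comparisons were PC3 against BPH-1 and DU145 against BPH-1, which share the BPH-1 libraries, and PC3 against DU145. Levels are FPKM, reads scaled to gene length and library depth. Fold changes were fitted on log2(FPKM + 1), on which low genes show less than their full change, and a gene was called higher or lower at an adjusted p under 0.05 over all genes tested. All 47 members passed the filter on low counts in all 3 comparisons.

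Before a cell copies its DNA, the helicase made of MCM2 to MCM7 is loaded onto replication origins by CDC6 and CDT1, and it is switched on when CDC45 and the GINS complex join it. DNA polymerase alpha then starts each strand, the clamp PCNA is placed by replication factor C, and the enzymes that make deoxynucleotides supply the fork. In mitosis, CDK1 bound to B-type cyclins drives entry, and motor proteins and centromere proteins build the spindle and attach it to chromosomes. The anaphase-promoting complex with CDC20, held back by the spindle checkpoint until then, starts anaphase. Replication genes are known targets of E2F factors, which are held back by RB1 family proteins, and many mitotic genes are switched on later by B-MYB (the product of MYBL2), FOXM1 and the MuvB complex through CHR elements and CCAAT boxes. Most of these genes vary with the cell cycle, and in bulk RNA fewer cycling cells and less RNA per cell cannot be told apart.

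Promoters are given first because both classes of genes are read from short motifs near the start. RefSeq sequences of the 250 bases before the start (GRCh38.p14) were at hand for 19 replication and 20 mitosis members, and a gene with several listed starts counted once if any of them held the motif. An E2F-type motif (TTTGGCGC, TTTCCCGC, TTTGCCGC or TTTCGCGC, either strand) lay in 8 of the 19 replication members and 3 of the 20 mitosis members, against 3.40% of 27305 genes. A CHR-type motif (TTTGAA or TTCGAA, either strand) lay in 2 replication and 11 mitosis members, against 17.2% of all genes. A CCAAT box (CCAAT, either strand) lay in 13 replication and 17 mitosis members, against 37.0% of all genes. The promoters of members described in full follow, each the 150 bases before the start, 5′ to 3′ on the gene's strand, with every motif of the 3 kinds in capitals. They were chosen to show an E2F-type replication promoter, 2 promoters with a CHR-type motif and a CCAAT box, and 1 with CCAAT boxes alone.
MCM6, chr2:135876444-135876593, minus strand: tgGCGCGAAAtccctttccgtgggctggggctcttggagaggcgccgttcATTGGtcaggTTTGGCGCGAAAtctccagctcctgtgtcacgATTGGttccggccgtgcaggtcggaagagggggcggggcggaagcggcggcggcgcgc
MKI67, chr10:128126424-128126573, minus strand: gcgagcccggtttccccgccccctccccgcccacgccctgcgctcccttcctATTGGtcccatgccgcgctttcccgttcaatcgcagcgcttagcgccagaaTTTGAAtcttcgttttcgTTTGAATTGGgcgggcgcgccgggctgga
KIF11, chr10:92592980-92593129, plus strand: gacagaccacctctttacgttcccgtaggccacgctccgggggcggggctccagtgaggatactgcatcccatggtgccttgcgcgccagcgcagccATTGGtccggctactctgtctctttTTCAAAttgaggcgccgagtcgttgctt
CENPF, chr1:214603045-214603194, plus strand: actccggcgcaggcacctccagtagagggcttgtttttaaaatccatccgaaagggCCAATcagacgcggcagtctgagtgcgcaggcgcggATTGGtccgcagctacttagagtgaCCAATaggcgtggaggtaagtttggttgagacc
The MCM6 stretch held 3 E2F-type matches, 2 of them overlapping, and 2 CCAAT boxes. In MKI67 the 2 CHR-type matches lay within 50 bases of the start, and the last of them shared 1 base with a CCAAT box on the other strand. KIF11 held 1 CHR-type match and 1 CCAAT box, and CENPF held 3 CCAAT boxes and no match of the other kinds. A match is a stretch of letters and no measure of binding.

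The depth recovered from the values was 12950665 to 16309560 reads a library, and the lowest count of any member was 15 reads (CENPE in a DU145 library). FPKM summed to 246959.8 ± 2986 (SD, n = 4) in BPH-1, 298496 ± 5975 in PC3 and 293758 ± 5858 in DU145. Basal keratins KRT5 and KRT14 and the basal factor TP63 were high in BPH-1 (TP63 11.2 to 13.8 FPKM) and at or near 0 in both PCa lines, where each stayed under 1 FPKM. The luminal marker KLK3 was listed at 0 in every library. The epithelial adhesion gene EPCAM was 57.7 to 63.2 FPKM in BPH-1, 6.92 to 11.1 in PC3 and 0.166 to 0.573 in DU145, where CDH1 was also under 1 FPKM while the keratins KRT8 and KRT18 were present in all 3 lines. Leukocyte, endothelial and stromal markers summed to under 5 FPKM per list in every library.

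Libraries of PC3 and of DU145 differed among themselves in how GC-rich and GC-poor genes were read out. For each library the median relative level of the 20 percent of genes with the lowest GC content was subtracted from that of the 20 percent with the highest, on the log2 scale and over 14926 genes. This GC gap was -1.45, -1.34, -1.53 and -1.33 in BPH-1, -0.043, 0.11, 0.74 and 1.55 in PC3, and 1.51, -0.33, 2.24 and 0.0074 in DU145. GC-poor genes were highest, relative to GC-rich genes, in BPH-1 and lowest in DU145 libraries 1 and 3 and PC3 library 4. No PCa library reached the gap of any BPH-1 library, so the gap and the line cannot be told apart in the comparisons with BPH-1. Because many members are GC-poor, values from fits with each library's GC trend divided out, and from DU145 libraries 2 and 4 alone, are given beside the fold changes they move most, and the calls gained and lost are listed for each comparison with BPH-1. The GC correction also removes any difference between lines that follows GC content.

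Summed over the 26 mitosis genes, the level was 969 ± 72.2 FPKM in BPH-1 (SD, n = 4), 545 ± 32.6 in PC3 and 527 ± 44.1 in DU145. The 21 replication genes summed to 633 ± 48.1, 445 ± 44.7 and 425 ± 43.9 FPKM. Such sums weigh genes by their level, and PCNA alone had means of 155, 81.2 and 48.2 FPKM in BPH-1, PC3 and DU145. Neither sum of any PCa library reached the lowest BPH-1 library. The PCa libraries overlapped each other in both sums.

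**Figure D1:**
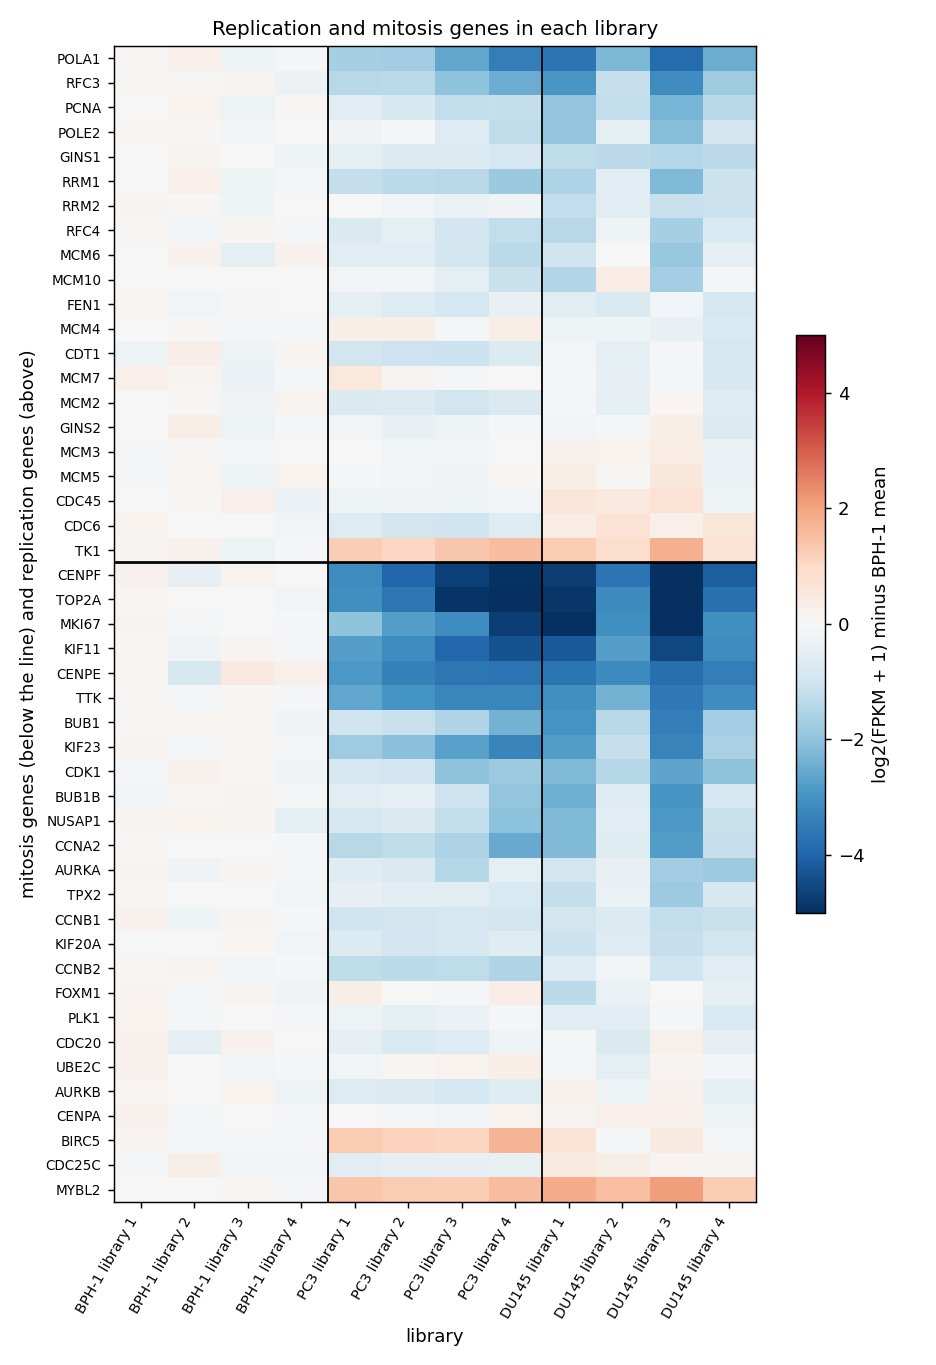
Each cell is log2(FPKM + 1) of 1 gene in 1 library minus that gene's BPH-1 mean, with libraries in columns by line and genes in rows by role, sorted by the DU145 fold change. The darkest blue (lowest) rows are CENPF, TOP2A, MKI67, KIF11, CENPE and TTK below the line and POLA1 above it, and CENPF, TOP2A, MKI67, KIF11 and POLA1 are darkest in PC3 library 4 and DU145 library 3 of their lines.

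Against BPH-1, mitosis genes were mostly lower in PC3. Of the 26, 21 were called lower and 2 higher (BIRC5 and MYBL2), while CENPA, UBE2C and FOXM1 were not called. The median log2 fold change was -0.97, against -0.13 for all genes tested. Of the 21 replication genes, 11 were called lower, 1 higher (TK1) and 9 not called, with a median of -0.59. In this comparison 40.4% of all genes tested were called lower and 27.1% higher, and 17.6% were lower by more than 1 on the log2 scale. By that stricter rule 13 mitosis genes and 3 replication genes were lower, so the share of mitosis genes stood above the background and the share of replication genes (14.3%) did not. With the GC trend divided out, 35 of the 47 members were called lower and 3 higher. In that fit 7149 of all 16395 genes tested were called lower and 3731 higher. MCM3, MCM5, GINS2, CDC45, UBE2C and FOXM1 then gained a call as lower, and MCM6, GINS1 and CDK1 lost their calls. Without PC3 library 4 the counts were 32 and 3, against 6822 lower and 4498 higher of all 16877 genes tested.

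Mitosis genes were also mostly lower in DU145, against the same BPH-1 libraries. Of the 26 mitosis genes 18 were called lower, MYBL2 alone was called higher and 7 were not called, with a median log2 fold change of -1.13 against -0.026 over all genes. Of the 21 replication genes 10 were called lower, CDC6 and TK1 higher and 9 not called, with a median of -0.58. Of all genes tested 32.4% were called lower, 30.3% higher and 17.3% lower by more than 1 on the log2 scale. By the stricter rule 14 mitosis and 8 replication genes were lower, shares of 53.8% and 38.1% against that 17.3%. With DU145 libraries 2 and 4 alone, 32 of the 47 were lower and 3 higher, where MCM2, MCM7, CDT1, CDC20 and FOXM1 gained a call as lower and CCNB2 lost its call. Over all 17860 genes tested in that fit, 5334 were lower and 5223 higher. With the GC trend divided out 36 were lower and 2 higher, against 6346 lower and 4328 higher of all 17002 genes tested. MCM2, MCM3, MCM5, MCM7, CDT1, GINS2, CDC20, AURKB, BIRC5, UBE2C and FOXM1 then gained a call as lower, and GINS1, TK1, CCNB1 and CCNB2 lost their calls. Counting both comparisons, which use the same BPH-1 libraries, 25 members were lower in both lines, 18 of them mitosis genes, against 25.9% of all genes tested in both. TK1 and MYBL2 were higher in both, against 13.9% of all genes, and CDC6 alone was called in opposite directions.

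**Figure D2:**
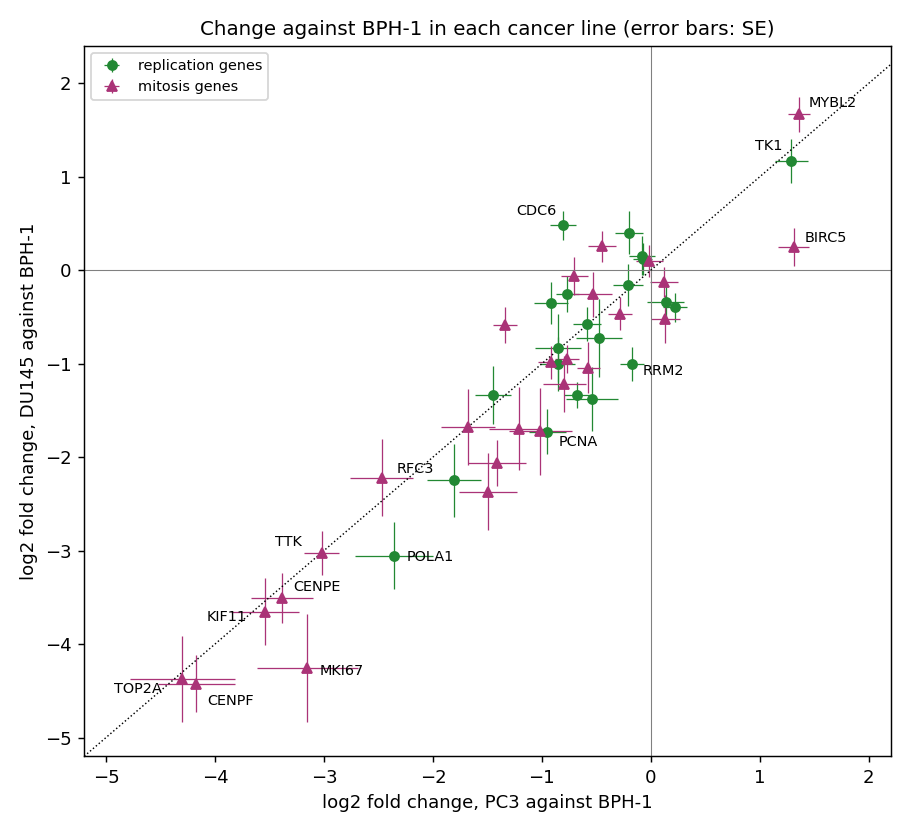
Each point is 1 member, with its log2 fold change in PC3 against BPH-1 on the horizontal axis and in DU145 against BPH-1 on the vertical axis, error bars of 1 SE, and a dotted line where both are equal. Both axes use the same BPH-1 libraries. TOP2A, CENPF, KIF11, CENPE, MKI67 and TTK lie below -3 on both axes, and TK1 and MYBL2 above 1 on both.

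Of the MCM2 to MCM7 helicase, MCM3, MCM5 and MCM7 were called in no comparison as fitted over all libraries. Summed over its 6 subunits the level was 209 ± 19.3 FPKM in BPH-1 (SD, n = 4), 181 ± 15.7 in PC3 and 183 ± 27.2 in DU145, and the 3 ranges overlapped. MCM3 read 52.4, 57.1, 51.5 and 55.5 FPKM in BPH-1 libraries 1 to 4, 53.6, 49.6, 48.7 and 53.4 in PC3 and 63.3, 61.9, 71.0 and 43.0 in DU145. MCM5 read 16.8, 18.7, 14.7 and 19.96 FPKM in BPH-1, 16.6, 15.7, 15.1 and 18.3 in PC3 and 21.8, 18.4, 26.2 and 13.8 in DU145. Neither gene was called in any comparison, although with the GC trend divided out both were called lower in PC3 (log2 fold changes -0.52 and -0.69) and in DU145 (MCM3 -0.53, adjusted p = 0.00838, and MCM5 -0.60, adjusted p = 0.00493). With DU145 libraries 1 and 3 alone, both were instead called higher in DU145 (MCM3 0.31, adjusted p = 0.0344, and MCM5 0.43, adjusted p = 0.0345). MCM7 read 32.1, 29.4, 21.4 and 25.1 FPKM in BPH-1, 38.5, 29.8, 24.6 and 26.5 in PC3 and 25.4, 19.6, 25.8 and 14.7 in DU145, and it was called lower in DU145 with libraries 2 and 4 alone (-0.62, adjusted p = 0.0253) and with the GC trend divided out (-1.11, adjusted p = 3.30e-04).

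MCM2, MCM4 and MCM6 did change in some comparisons. MCM2 was 37.4, 40.1, 33.4 and 42.9 FPKM in BPH-1 and 22.5, 23.5, 19.8 and 22.9 in PC3, with no overlap, and was 1.73-fold lower in PC3 by the means (log2 fold change -0.76, SE 0.11, adjusted p = 1.88e-04). In DU145 it was 36.9, 27.7, 41.3 and 24.4 FPKM, with libraries 1 and 3 inside the BPH-1 range and libraries 2 and 4 below it. The GC-corrected values of MCM2 were -1.43 in PC3 and -1.04 in DU145, and with DU145 libraries 2 and 4 alone the DU145 value was -0.54. MCM6 was 36.3, 41.7, 25.9 and 42.2 FPKM in BPH-1, 23.6, 23.7, 18.7 and 13.6 in PC3 and 17.7, 36.3, 8.85 and 25.8 in DU145. It was called lower in PC3 (log2 fold change -0.85, SE 0.21, adjusted p = 0.00506) and not in DU145, where DU145 library 3 was the lowest and library 2 the highest, and the PC3 call was lost with the GC trend divided out (-0.42, adjusted p = 0.0511). MCM4 was 36.3, 36.5, 34.3 and 34.4 FPKM in BPH-1, 44.0, 43.9, 34.0 and 45.1 in PC3 and 29.8, 30.01, 27.3 and 20.6 in DU145, and its call as lower in DU145 was narrow (adjusted p = 0.0492) and was lost in 12 of 21 alternative fits, although with the GC trend divided out it was called at -0.82 (adjusted p = 5.17e-04). The same gene was higher in PC3 than in DU145 (log2 fold change 0.62, SE 0.16, adjusted p = 0.011).

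Of the genes that load the helicase and switch it on, CDC6 separated the PCa lines. This loading factor (ENSG00000094804, chromosome 17, 40287633 to 40304657 on the plus strand) was 22.2, 19.4, 19.7 and 18.1 FPKM in BPH-1, 12.2, 10.1, 9.40 and 12.2 in PC3 and 25.5, 33.0, 23.7 and 30.7 in DU145. Every PC3 library lay below, and every DU145 library above, all BPH-1 libraries. CDC6 was 1.81-fold lower in PC3 than in BPH-1 (log2 fold change -0.80, SE 0.12, adjusted p = 2.53e-04), 1.42-fold higher in DU145 (log2 fold change 0.48, SE 0.16, adjusted p = 0.0221) and 2.57-fold lower in PC3 than in DU145 (log2 fold change -1.28, SE 0.15, adjusted p = 1.40e-04). With the GC trend divided out these were -0.85, 0.50 and -1.35. The call in DU145 against BPH-1 was lost with a replicate block, with all libraries scaled to the same summed FPKM, with DU145 libraries 1 and 3 alone, and without BPH-1 library 3, BPH-1 library 4 or DU145 library 4. CDT1, the partner of CDC6, had means of 24.0 ± 5.06, 12.1 ± 1.65 and 18.8 ± 4.84 FPKM (SD, n = 4) in BPH-1, PC3 and DU145 and was called lower in PC3 than in either other line. Its PC3 and DU145 ranges overlapped (10.8 to 14.4 and 12.9 to 22.9 FPKM), and the call between them was lost in 12 of 21 alternative fits, among them those without PC3 library 1, 2 or 3 or DU145 library 1, 2 or 3, while the call against BPH-1 was lost in none of 19. Against BPH-1 its GC-corrected values were -1.78 in PC3 and -1.21 in DU145. CDC45, which activates the helicase, ranged 9.13 to 13.8 in BPH-1, 9.39 to 10.52 in PC3 and 9.64 to 19.8 in DU145, and was called lower in PC3 than in DU145 (log2 fold change -0.60, SE 0.21, adjusted p = 0.0387) and not called in either against BPH-1. That call was lost in 14 of 21 alternative fits, among them the GC corrections (-0.41, adjusted p = 0.069, for the GC trend) and the omission of any PC3 library or of DU145 library 1, 2 or 3. GINS1, a GINS subunit, was 5.67 to 6.45 FPKM in DU145 against 14.7 to 18.9 in BPH-1 (log2 fold change -1.34, SE 0.14, adjusted p = 2.97e-05), a call that was lost with the GC trend divided out (-0.40, adjusted p = 0.162) and kept with DU145 libraries 2 and 4 alone (-1.32). In PC3 it was 8.95 to 11.8 FPKM and called lower (log2 fold change -0.68, SE 0.12, adjusted p = 7.05e-04), but with the GC trend divided out its value was 0.10 (adjusted p = 0.5). GINS2 and MCM10, which helps open the helicase, were called in no comparison.

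The clamp PCNA (ENSG00000132646, chromosome 20, 5114953 to 5126626 on the minus strand) had the highest FPKM of the replication members in BPH-1. It read 158, 172, 131 and 161 FPKM in BPH-1, 104, 89.3, 64.5 and 66.7 in PC3 and 38.4, 65.3, 30.1 and 59.0 in DU145, and no PCa library reached the lowest BPH-1 library. It was 1.91-fold lower in PC3 (log2 fold change -0.95, SE 0.17, adjusted p = 7.66e-04) and 3.23-fold lower in DU145 (log2 fold change -1.73, SE 0.24, adjusted p = 1.79e-04), with log2 fold changes of -0.96 and -1.64 once the GC trend was divided out. The clamp loader subunits RFC3 and RFC4 were lower in both lines, with log2 fold changes of -1.80 and -0.85 in PC3 and -2.25 and -1.002 in DU145. Their GC-corrected values were -0.79 and -0.88 in PC3 and -1.31 and -0.95 in DU145, and with DU145 libraries 2 and 4 alone -1.47 and -0.48. POLA1, the catalytic subunit of the polymerase that begins each strand, had the largest fall of a replication gene in both lines. Its level was 13.2 to 18.5 FPKM in BPH-1, 0.505 to 4.18 in PC3 and 0.136 to 2.499 in DU145. The log2 fold change of POLA1 was -2.36 in PC3 (SE 0.36, adjusted p = 2.93e-04) and -3.05 in DU145 (SE 0.36, adjusted p = 5.51e-05). The corrected values of POLA1 were -2.001 and -2.74. POLE2, a subunit of polymerase epsilon, was called lower in DU145 (log2 fold change -1.38, SE 0.34, adjusted p = 0.00543) and missed the threshold in PC3 (-0.54, adjusted p = 0.0681). FEN1, which trims the flaps between new fragments, had log2 fold changes of -0.59 and -0.58 and was called lower in both (-1.09 and -1.29 with the GC trend divided out). Its DU145 call was lost with upper-quartile scaling, with DU145 libraries 1 and 3 alone and without BPH-1 library 1.

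Genes of deoxynucleotide supply went separate ways. TK1, the thymidine kinase of S phase (ENSG00000167900, chromosome 17, 78174075 to 78187233 on the minus strand), was 14.6, 15.4, 10.7 and 12.02 FPKM in BPH-1, 31.9, 28.1, 34.3 and 40.4 in PC3 and 32.8, 25.2, 46.9 and 22.4 in DU145. All 8 PCa libraries lay above all BPH-1 libraries. TK1 was 2.55-fold higher in PC3 (log2 fold change 1.29, SE 0.15, adjusted p = 5.00e-05) and 2.41-fold higher in DU145 (log2 fold change 1.17, SE 0.24, adjusted p = 0.00174). TK1 is GC-rich (62.8% GC), and with the GC trend divided out the log2 fold change was 0.47 in PC3 (adjusted p = 0.00672) and 0.33 in DU145 (adjusted p = 0.0639), so the call in DU145 was lost. RRM2, the small subunit of ribonucleotide reductase that accumulates in S phase, was 31.2, 28.9, 24.1 and 28.7 FPKM in BPH-1, 27.3, 25.4, 22.1 and 24.9 in PC3 and 11.4, 18.6, 12.3 and 12.7 in DU145. RRM2 was lower in DU145 than in BPH-1 (log2 fold change -1.005, SE 0.18, adjusted p = 8.35e-04) and than in PC3, and PC3 was not called against BPH-1 (-0.17, adjusted p = 0.202). The large subunit RRM1 was lower in both lines (log2 fold change -1.45 in PC3 and -1.33 in DU145, and -1.10 and -0.84 with the GC trend divided out).

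**Figure D3:**
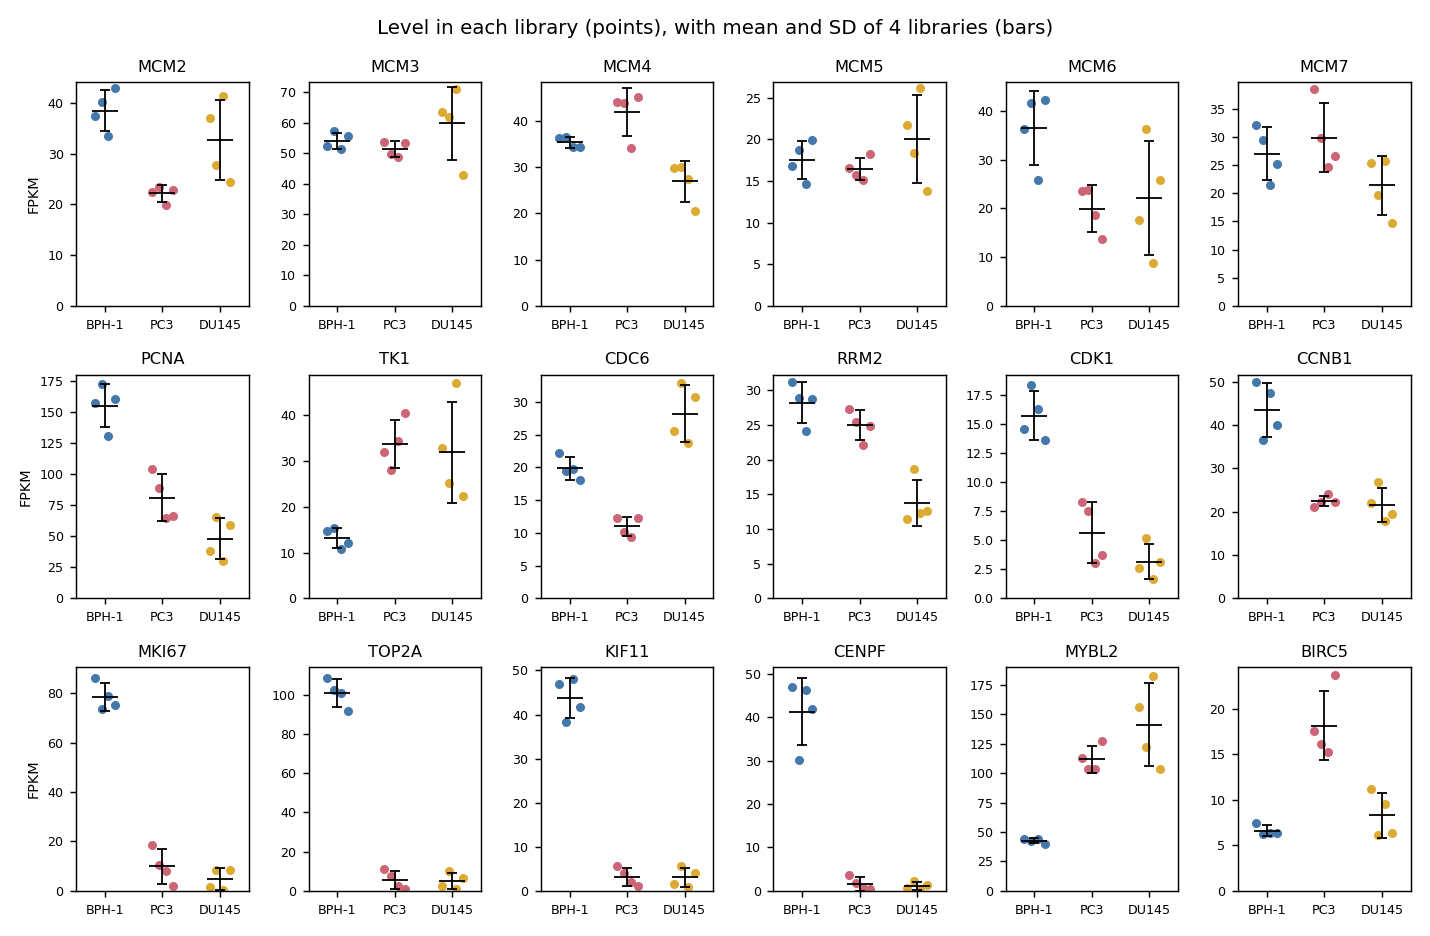
FPKM of 18 members by line, with 1 point per library, a horizontal bar for the mean and whiskers of 1 SD of 4 libraries, and a vertical axis from 0 that differs between panels. BPH-1 lies above both PCa lines in PCNA, CDK1, CCNB1, MKI67, TOP2A, KIF11 and CENPF and below them in TK1 and MYBL2, and the DU145 points of MCM6 spread widely.

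Among the regulators of mitotic entry, CDK1 (ENSG00000170312, chromosome 10, 60778331 to 60794852 on the plus strand), the kinase that drives it, was 14.6, 18.4, 16.4 and 13.6 FPKM in BPH-1, 8.32, 7.56, 3.08 and 3.73 in PC3 and 2.61, 5.24, 1.68 and 3.17 in DU145. BPH-1 did not overlap with either line. CDK1 was 2.78-fold lower in PC3 (log2 fold change -1.41, SE 0.27, adjusted p = 0.00111) and 4.97-fold lower in DU145 (log2 fold change -2.07, SE 0.25, adjusted p = 6.32e-05). With 37.0% GC it is among the GC-poorest members, and with the trend divided out the PC3 value was -0.0083 (adjusted p = 0.97) and the DU145 value -0.63 (adjusted p = 0.00608). Its partner cyclin CCNB1 was 50.01, 36.6, 47.5 and 39.99 FPKM in BPH-1, 21.2, 22.2, 24.0 and 22.3 in PC3 and 22.1, 26.9, 17.96 and 19.4 in DU145, 1.94-fold lower in PC3 and 2.02-fold lower in DU145 by the means (PC3, log2 fold change -0.92, SE 0.12, adjusted p = 1.01e-04). In DU145 the log2 fold change of CCNB1 was -0.98 (SE 0.17, adjusted p = 7.99e-04) and it lost its call with the GC trend divided out (-0.40, adjusted p = 0.0848).

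CCNB2, the other B-type cyclin, was 25.2, 26.4, 21.3 and 22.5 FPKM in BPH-1, 9.30, 9.01, 9.23 and 7.73 in PC3 and 14.7, 21.4, 11.4 and 16.2 in DU145. PC3 lay below every library of both other lines. CCNB2 was lower in PC3 than in BPH-1 (log2 fold change -1.34, SE 0.11, adjusted p = 5.99e-06). Its call as lower in DU145 (adjusted p = 0.0238) was lost with the GC trend divided out (adjusted p = 0.0622) and with DU145 libraries 2 and 4 alone (adjusted p = 0.0817). CCNB2 was 1.81-fold lower in PC3 than in DU145 (log2 fold change -0.76, SE 0.19, adjusted p = 0.00803). CDC25C, the phosphatase that activates CDK1, was 3.66, 5.04, 3.502 and 3.49 FPKM in BPH-1, 2.401, 2.55, 2.68 and 2.74 in PC3 and 5.73, 5.03, 4.33 and 4.40 in DU145. It was lower in PC3 than in BPH-1 (log2 fold change -0.45, SE 0.13, adjusted p = 0.0115) and than in DU145 (log2 fold change -0.70, SE 0.14, adjusted p = 0.00263), and was not called in DU145 against BPH-1. CCNA2, the cyclin of S phase and early mitosis, had log2 fold changes of -1.68 in PC3 and -1.68 in DU145, and -1.05 and -0.90 with the GC trend divided out. The mitotic kinase AURKA was lower in both lines (-0.79 in PC3 and -1.22 in DU145, and -0.98 and -1.37 with the GC trend divided out). AURKB, the kinase of the chromosomal passenger complex, was lower in PC3 than in BPH-1 (log2 fold change -0.70, SE 0.13, adjusted p = 7.99e-04) but not called in DU145 (-0.061, adjusted p = 0.801), where it was called lower with the GC trend divided out (-0.77, adjusted p = 0.00152). PLK1, a kinase of mitotic entry and spindle poles, was called lower in PC3 (log2 fold change -0.28, adjusted p = 0.0477) and in DU145 (-0.47, adjusted p = 0.0399), with libraries of both lines inside the BPH-1 range. These calls were lost in 13 of 19 and 12 of 21 alternative fits, and with the GC trend divided out PLK1 stood at -0.89 and -1.21.

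The largest falls were in genes of chromosomes, kinetochores and the spindle. TOP2A, the topoisomerase that untangles sister DNA (ENSG00000131747, chromosome 17, 40388516 to 40417950 on the minus strand), was 109, 103, 101 and 91.6 FPKM in BPH-1, 11.3, 7.39, 2.37 and 1.05 in PC3 and 2.49, 10.3, 0.943 and 6.60 in DU145. The highest PCa library stayed far below the lowest BPH-1 library. TOP2A was 18.3-fold lower in PC3 by the means (log2 fold change -4.30, SE 0.48, adjusted p = 4.41e-05) and 19.8-fold lower in DU145 (log2 fold change -4.37, SE 0.46, adjusted p = 2.92e-05). CENPF, a kinetochore protein of G2 and mitosis (ENSG00000117724, chromosome 1, 214603195 to 214664588 on the plus strand), was 46.98, 30.1, 46.1 and 41.8 FPKM in BPH-1, 3.74, 1.70, 0.652 and 0.352 in PC3 and 0.544, 2.26, 0.173 and 1.41 in DU145. It was 25.6-fold lower in PC3 (log2 fold change -4.17, SE 0.36, adjusted p = 7.75e-06) and 37.6-fold lower in DU145 (log2 fold change -4.42, SE 0.31, adjusted p = 2.32e-06). KIF11, the motor that pushes spindle poles apart (ENSG00000138160, chromosome 10, 92593286 to 92655395 on the plus strand), was 46.9, 38.4, 48.1 and 41.7 FPKM in BPH-1, 5.58, 4.11, 1.94 and 1.18 in PC3 and 1.45, 5.70, 0.907 and 4.08 in DU145. It was 13.7-fold lower in PC3 (log2 fold change -3.54, SE 0.31, adjusted p = 9.24e-06) and 14.4-fold lower in DU145 (log2 fold change -3.65, SE 0.36, adjusted p = 1.95e-05). In each of these genes all 8 PCa libraries lay below all BPH-1 libraries.

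MKI67, the proliferation marker that coats mitotic chromosomes (ENSG00000148773, chromosome 10, 128096659 to 128126385 on the minus strand), was 86.1, 73.6, 78.9 and 75.1 FPKM in BPH-1, 18.7, 10.6, 8.14 and 2.04 in PC3 and 1.54, 8.59, 0.297 and 8.53 in DU145. No PCa library came near BPH-1, and within DU145 libraries 1 and 3 were far below libraries 2 and 4. MKI67 was 7.95-fold lower in PC3 (log2 fold change -3.15, SE 0.46, adjusted p = 2.42e-04) and 16.6-fold lower in DU145 (log2 fold change -4.25, SE 0.58, adjusted p = 1.45e-04). These 4 genes kept large values when the GC trend was divided out. In PC3 and DU145 the log2 fold changes were then -3.27 and -3.20 for TOP2A and -3.58 and -3.83 for CENPF. They were -2.44 and -2.46 for KIF11 and -3.41 and -4.44 for MKI67. With DU145 libraries 2 and 4 alone, whose GC gap was nearest to BPH-1, the DU145 values were -3.45 for TOP2A, -3.89 for CENPF, -2.93 for KIF11 and -3.05 for MKI67. The centromere motor CENPE, the checkpoint kinase TTK and the cytokinesis motor KIF23 were lower in both lines as well, by log2 fold changes of -3.38, -3.02 and -2.47 in PC3 and -3.51, -3.02 and -2.22 in DU145. Corrected for GC they stood at -2.83, -2.43 and -2.002 in PC3 and -3.02, -2.36 and -1.63 in DU145.

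Checkpoint and spindle genes with smaller falls in both lines were BUB1 and BUB1B, the spindle assembly proteins NUSAP1 and TPX2, and the motor KIF20A. Their log2 fold changes ran from -1.49 (BUB1) to -0.57 (TPX2) in PC3 and from -2.37 (BUB1) to -0.95 (KIF20A) in DU145. The corrected values in PC3 and DU145 were -0.95 and -1.75 for BUB1, -0.62 and -1.24 for BUB1B and -0.68 and -1.03 for NUSAP1, and -0.81 and -1.25 for TPX2 and -1.10 and -1.34 for KIF20A. TPX2 had the highest FPKM of the mitosis genes in BPH-1, 142 to 166, and read 89.9 to 115 in PC3 and 43.4 to 123 in DU145. CDC20, the activator of the anaphase-promoting complex, was called lower in PC3 (log2 fold change -0.53, SE 0.18, adjusted p = 0.0227) and not in DU145. The PC3 call was lost with no filter, with median-of-ratios or upper-quartile scaling, and without BPH-1 library 1, 3 or 4 or PC3 library 2 or 3. With the GC trend divided out CDC20 was called lower in PC3 (-1.21, adjusted p = 2.32e-04) and in DU145 (-1.06, adjusted p = 5.86e-04), and with DU145 libraries 2 and 4 alone at -0.59 (adjusted p = 0.0439). UBE2C, its ubiquitin-conjugating enzyme, was 50.9 to 64.5 FPKM in BPH-1, 49.8 to 69.9 in PC3 and 40.4 to 61.2 in DU145 and was called in no comparison. FOXM1, a factor that activates mitotic genes, was 16.4 to 20.7, 17.3 to 24.2 and 7.09 to 19.3 FPKM and was called in none. The centromeric histone CENPA was not called either. With the GC trend divided out, UBE2C and FOXM1 were called lower in PC3 (-0.30 and -0.43 on the log2 scale) and in DU145 (-0.68 and -1.22).

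MYBL2 and BIRC5 were the mitosis genes that were higher. MYBL2 encodes B-MYB, a factor that works with the MuvB complex (ENSG00000101057, chromosome 20, 43667019 to 43716496 on the plus strand). It was 43.8, 42.7, 44.1 and 40.2 FPKM in BPH-1, 113, 103, 103 and 128 in PC3 and 156, 122, 183 and 103 in DU145, with every PCa library above every BPH-1 library. It was 2.62-fold higher in PC3 (log2 fold change 1.36, SE 0.099, adjusted p = 2.94e-06) and 3.30-fold higher in DU145 (log2 fold change 1.67, SE 0.19, adjusted p = 4.25e-05). MYBL2 is GC-rich (60.5% GC), and with the trend divided out it remained called at 0.59 in PC3 (adjusted p = 0.00131) and 0.83 in DU145 (adjusted p = 4.32e-04). BIRC5, survivin, a passenger complex subunit that also blocks apoptosis (ENSG00000089685, chromosome 17, 78214186 to 78225636 on the plus strand), was 7.45, 6.28, 6.39 and 6.37 FPKM in BPH-1, 17.5, 16.1, 15.2 and 23.6 in PC3 and 11.2, 6.13, 9.52 and 6.31 in DU145. PC3 lay above all libraries of both other lines. BIRC5 was 2.74-fold higher in PC3 than in BPH-1 (log2 fold change 1.31, SE 0.14, adjusted p = 3.67e-05) and 2.19-fold higher than in DU145 (log2 fold change 1.06, SE 0.22, adjusted p = 0.00335). In DU145 against BPH-1 it was not called (0.25, adjusted p = 0.303), and with the GC trend divided out it was called lower there (-0.34, adjusted p = 0.0351). With DU145 libraries 1 and 3 alone it was called higher there (0.57, adjusted p = 0.00486).

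With all libraries fitted, few members were called between PC3 and DU145. Of the 47, 5 were called higher in PC3 (MCM4, GINS1, PCNA, RRM2 and BIRC5) and 7 lower (MCM2, CDC6, CDT1, CDC45, CCNB2, CDC25C and AURKB), while 35 were not called. Of all genes tested 20.0% were called higher and 28.3% lower, so the shares of the members, 10.6% and 14.9%, were below the background. The median log2 fold change was 0.12 over the replication and 0.15 over the mitosis members, against -0.055 over all genes. The genes with the largest falls against BPH-1 were not called between the PCa lines, and the SE was wide (MKI67 1.10, SE 0.76, and TOP2A 0.072, SE 0.68). With DU145 libraries 2 and 4 alone, 7 members were higher and 3 lower in PC3, against 3515 and 5526 of all 17266 genes tested. With DU145 libraries 1 and 3 alone, 14 were higher and 11 lower, against 4008 and 5359 of all 17152 genes. The number of members called between the PCa lines thus depended on which DU145 libraries were used. The calls of MCM2, CDT1 and CDC45 were lost in 13 of 21, 12 of 21 and 14 of 21 alternative fits and those of PCNA and AURKB in 6 of 21 each.

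GC-poor members had the larger falls. Across the 47 members, Spearman's rho between GC content of the longest transcript and log2 fold change was 0.77 in PC3 against BPH-1 and 0.80 in DU145 against BPH-1, a description over genes that share the same libraries. Over all genes tested it was 0.45 and 0.48. With genes split into 5 equal classes, in the class with the lowest GC content, the median log2 fold change of all genes was -0.82 in PC3, and that of the 7 members in it -3.38. In DU145 the same medians were -0.83 and -3.51. In the next-lowest class, which held 17 members, they were -0.33 for all genes and -0.95 for members in PC3, and -0.31 and -1.34 in DU145. The 4 members in the class with the longest transcripts, MKI67, TOP2A, CENPE and CENPF, had a median log2 fold change of -3.78 in PC3 and -4.31 in DU145, against -0.37 and -0.36 for all genes of that class. MKI67 stood at 48.3% GC and 12678 bases. With the GC and length trends both divided out its log2 fold change was -3.09 in PC3 and -4.35 in DU145.

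**Figure D4:**
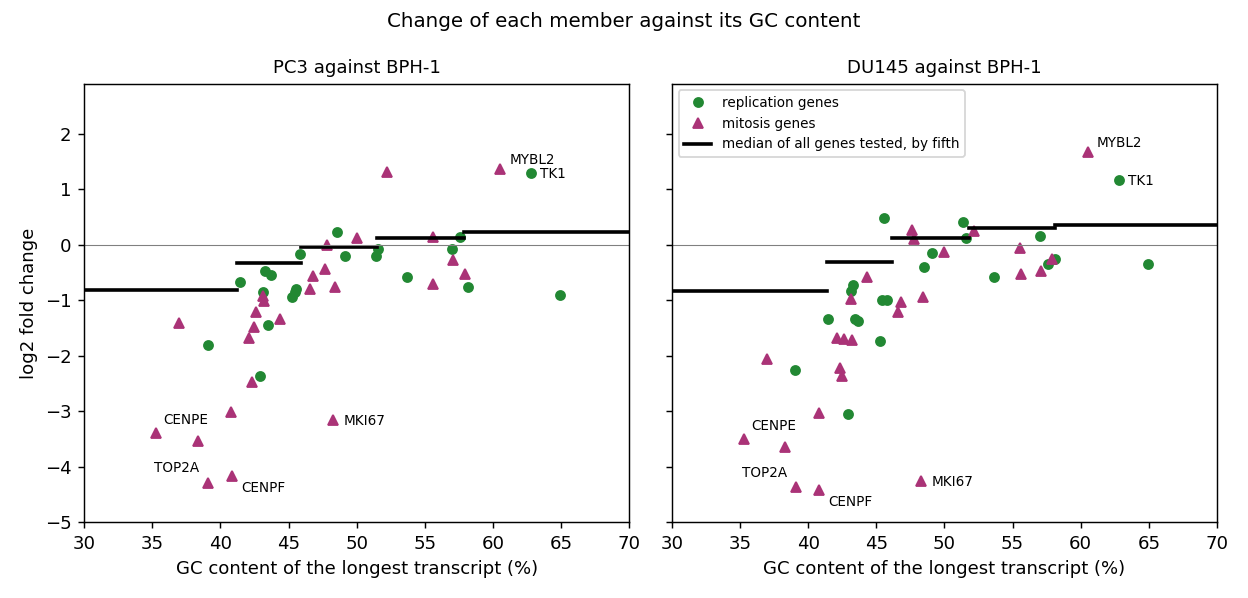
Log2 fold change of each member against the GC content of its longest transcript (percent), in PC3 and in DU145 against BPH-1, with horizontal black bars for the median of all genes tested in each of 5 equal classes of GC content. The 7 members in the GC-poorest class lie under its bar in both panels, MKI67 lies far under its bar, and MYBL2 and TK1 lie above theirs, which for TK1 in DU145 was not called once the GC trend was divided out.

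The libraries of 1 line differed widely in the same members. The ratio of the highest to the lowest library had a median of 1.24 over the mitosis genes in BPH-1, 1.81 in PC3 and 2.88 in DU145. It reached 28.9 for MKI67 in DU145 and 10.8 for TOP2A in PC3. Over the replication genes the medians were 1.32, 1.43 and 2.05, and the ratio reached 18.4 for POLA1 in DU145 and 8.27 for POLA1 in PC3. In DU145, libraries 1 and 3 both lay below libraries 2 and 4 in 24 of the 47 members and both above in 14, against 35.2% below and 37.9% above of all genes tested. MYBL2, TK1 and MCM5 were higher in libraries 1 and 3, and TOP2A, MKI67 and POLA1 were lower there. These shifts ran with the GC gap of the libraries, and other properties moved with that gap. The same difference between the shortest and the longest transcripts was 0.83, -0.16, 1.38 and -0.075 in DU145 libraries 1 to 4 and -0.096, -0.050, 0.21 and 0.77 in PC3. In BPH-1 it was -0.71 to -0.57, below every PCa library, so this length difference and the line cannot be told apart either. Mitochondrial genes held 30.7, 37.7, 25.8 and 39.7% of summed FPKM in DU145 and 34.3, 35.0, 34.4 and 27.4% in PC3, lowest in DU145 library 3 and PC3 library 4, where both gaps were widest. The mitochondrial share in BPH-1 was 25.0 to 27.5%. The part of the GC gap, transcript length and mitochondrial share in these shifts was not tested beyond the corrected values above.

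**Figure D5:**
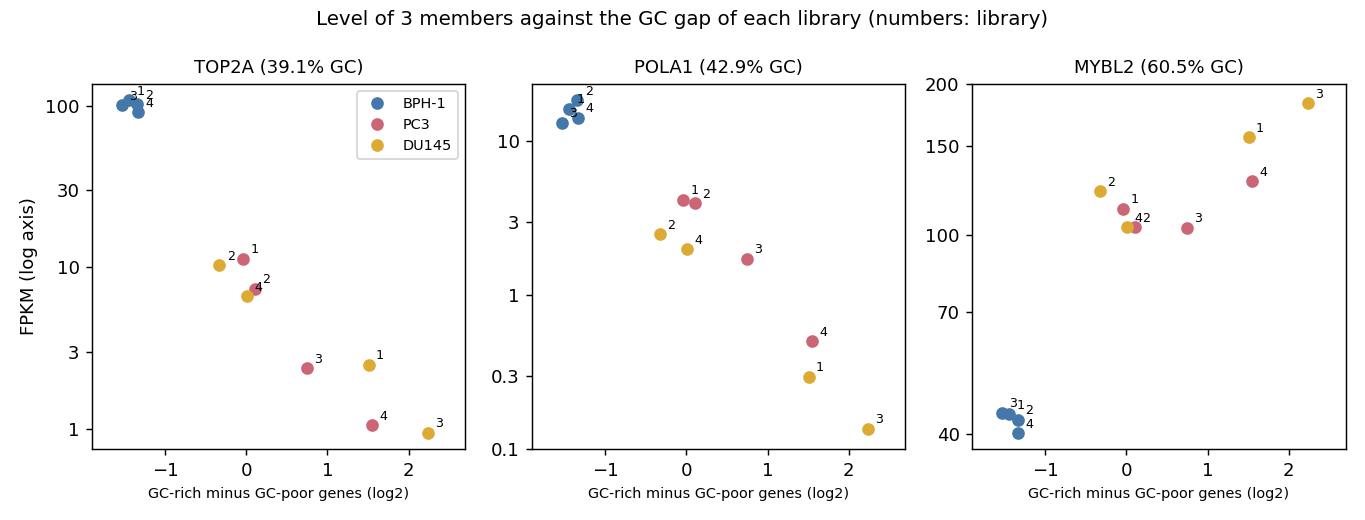
FPKM of TOP2A, POLA1 and MYBL2 (log axis) in each library against the GC gap of that library (log2, GC-rich minus GC-poor genes), with points coloured by line and numbered by library. Within PC3 and within DU145, the library with the widest gap (PC3 library 4 and DU145 library 3) has the lowest TOP2A and POLA1 and the highest MYBL2, and BPH-1 sits apart from both other lines at the left.

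Other genes of the same processes, in 9 lists that hold none of the members, were called lower against BPH-1 more often than all genes tested, though not in every list. Of their 132 genes, 88 were called lower and 17 higher in PC3 against BPH-1, with a median log2 fold change of -0.66. The 66.7% called lower compares with 40.4% of all genes tested. In DU145 against BPH-1 75 were lower and 14 higher, with a median of -0.73, and the share lower was 56.8% against 32.4%. In PC3 against DU145 23 were lower and 18 higher (17.4% and 13.6%), below the 28.3% and 20.0% of all genes. With the GC trend divided out, 89 were lower and 8 higher in PC3 against BPH-1, and 83 and 12 in DU145. Over all genes, the PC3 fit then gave 7149 lower and 3731 higher of 16395. The DU145 fit gave 6346 lower and 4328 higher of 17002. The shares in PC3 of passenger and cytokinesis genes (33.3%) and of nucleotide supply genes (44.4%) were below or near the background. Spindle motors and organisers had the lowest median, -1.82 in PC3 and -1.88 in DU145, with 14 and 13 of 17 genes called lower. Their largest fall was in ASPM (log2 fold change -4.14, SE 0.19, adjusted p = 1.59e-07) in PC3, a spindle-pole protein. ASPM has 37.1% GC, and its corrected value in PC3 was -3.72. Condensin, cohesin and their regulators had 9 and 8 of 11 genes lower, led by the cohesin subunit SMC3 (log2 fold change -4.18, SE 0.35, adjusted p = 6.39e-06) in PC3. SMC3 has 38.9% GC, and its corrected value in PC3 was -3.21. Kinetochore and checkpoint genes had 16 and 11 of 19 lower, and ZWINT (log2 fold change 1.35, SE 0.15, adjusted p = 5.00e-05) was the largest rise in PC3 (0.96 with the GC trend divided out). Of 9 passenger and cytokinesis genes 3 and 7 were lower, with the contractile-ring scaffold ANLN (log2 fold change -4.41, SE 0.37, adjusted p = 7.08e-06) the largest fall in DU145 (-3.44 with the GC trend divided out). Of the 12 genes of mitotic entry and the anaphase-promoting complex, 7 were lower in PC3 and 5 in DU145.

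On the replication side, 13 of 15 licensing and firing genes were lower in PC3 and 10 in DU145. Those shares, 86.7% and 66.7%, compare with 40.4% and 32.4% of all genes tested. The helicase RECQL4 (log2 fold change 2.43, SE 0.099, adjusted p = 8.82e-08) was the largest rise in PC3. RECQL4 has 65.5% GC and its corrected value was 1.60. Of 22 fork and polymerase genes 11 were lower and 5 higher in PC3, and 9 lower and 1 higher in DU145. Their shares lower, 50% and 40.9%, stood closer to the same 40.4% and 32.4%. The fork protein WDHD1 (log2 fold change -3.30, SE 0.26, adjusted p = 4.82e-06) fell most in DU145. WDHD1 has 38.1% GC, and its corrected value in DU145 was -2.49. Of 9 nucleotide supply genes 4 were lower and 2 higher in PC3, and 3 were lower and 3 higher in DU145, where the median log2 fold change was 0.39. The DU145 shares, 33.3% lower and 33.3% higher, were near the 32.4% and 30.3% of all genes tested. The thymidylate synthase TYMS (log2 fold change 1.61, SE 0.12, adjusted p = 3.62e-06) led the rises in PC3, and CTPS1 (log2 fold change 1.59, SE 0.18, adjusted p = 4.52e-05) led them in DU145. The GC-corrected values were 1.19 for TYMS in PC3 and 2.17 for CTPS1 in DU145. Of 18 E2F and MuvB factors and S-phase cyclins 11 were lower and 3 higher in PC3, and 9 and 5 in DU145. The shares lower were 61.1% and 50%. E2F2, an activating E2F, was the largest rise of that list in both lines (log2 fold change 0.90 in PC3 and 1.38 in DU145), and the pocket protein RBL1 the largest fall (-2.12 and -2.46). E2F2 was not called in PC3 with the GC trend divided out (0.42, adjusted p = 0.16) and stood at 0.76 in DU145, and RBL1, with 40.01% GC, stood at -1.30 and -1.65.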

How the data were processed

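The authors deposited normalized values of 58302 genes in 12 libraries, 4 of each line, which had the form of FPKM. The header names no unit. The submitters' processing notes name HISAT2 2.1.0, CASAVA 1.8, edgeR and GRCh38 (hg38), and the counting rule and use of strand are not given in the sources used here, so reads of overlapping genes on opposite strands cannot be told apart. Low values were whole multiples of 1 read when gene length was the sum of distinct GENCODE 29 exons, which gave each library's depth. For 43 of the 47 members the values came out as whole reads within 0.01 in every library, and for MCM4, CDC6, CDC25C and KIF23 they did not, which touches their filter and not their FPKM. Genes needed 10 reads at the median depth in at least 4 libraries and 15 reads in all, and 263 genes without a length were left out.

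FPKM were compared as deposited with limma 3.58.1 in R 4.3.3 (lmFit, eBayes with trend) on log2(FPKM + 1), each fit holding the lines compared, with Benjamini-Hochberg adjustment over all genes tested. Other software was Python 3.11.15 with pandas 2.3.3, scipy 1.17.1, numpy 2.4.6 and matplotlib 3.10.9. The fits were also run on simulated counts with either no GC trend or the same trend in all libraries of a line. They therefore do not cover GC gaps that differ within a line, as in PC3 and DU145. A marker of the luminal list is not reported here. The GC correction divided out each library's spline of log2 FPKM on the GC content of the longest transcript, with 5 degrees of freedom, over genes with a mean of at least 50 reads. Members and lists were chosen with earlier results of these data known. Values per library are given for MCM2 to MCM7, PCNA, MKI67, CDK1, CCNB1 and the members among the 3 largest rises or falls in a comparison, and of each pathway list the largest called rise and fall may be named. Alternatives were other filters, pseudocounts and scalings, a replicate block, a fit over all 3 lines, voom on recovered reads, the GC correction, leaving out each library, and a log2 fold change over 1. The GC and length correction and the DU145 library pairs were added after the data were seen. Depths of 12950665 to 16309560 reads set a limit from counting error only.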

Additional observations from a re-analysis of the deposited data

Results flagged for a closer look

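Of 66 groups of 4 libraries (20 members described in full and the summed levels of both roles, in each line), 3 held 1 library far from the other 3 by Dixon's test, and chance alone is expected to mark about 5% of groups. MCM4 was 34.0 FPKM in PC3 library 3, against 43.9 to 45.1 in the other PC3 libraries. BIRC5 was 7.45 FPKM in BPH-1 library 1, against 6.28 to 6.39 in the others, which is far below its PC3 level. CDC25C was 5.04 FPKM in BPH-1 library 2, against 3.49 to 3.66 in the others.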

How the results depend on the processing

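The 141 fold changes (47 members in 3 comparisons) were refitted 2867 times in all under the alternatives. Of these values 2645 kept their call or stayed uncalled, 122 lost a call and 88 gained one. A further 12 turned direction and were called in at least 1 of the fits compared. Values called in neither fit count among the 2645 whatever their direction, and some of them changed sign. Against BPH-1 the counts of members called lower and higher stayed within 1.5 times under every scaling, filter, pseudocount and GC correction. With a log2 fold change over 1 also required, 16 were lower in PC3 against BPH-1, and in PC3 against DU145 1 was higher and 1 lower. With DU145 libraries 1 and 3 only, 6 of the 47 members were higher against BPH-1 (MCM3, MCM5, CDC45, TK1, BIRC5 and MYBL2). That share was below the background, where 6218 of all 17916 genes tested were called higher. With the same DU145 libraries, PC3 against DU145 gave 14 higher and 11 lower, against 4008 and 5359 of all 17152 genes tested. The 7 lower in PC3 against DU145 became 3 with DU145 libraries 2 and 4 only, 4 with no filter, 3 with median-of-ratios and 4 with upper-quartile scaling, and 4 with the GC and length trends divided out. Leaving out 1 library gave 3 to 4 higher and 30 to 33 lower in PC3 against BPH-1, 2 to 3 and 24 to 29 in DU145 against BPH-1, and 4 to 7 and 3 to 7 in PC3 against DU145, with 3 lower without PC3 library 3 or DU145 library 1 and 4 without PC3 library 1, PC3 library 2 or DU145 library 3. The cause was not tested. Scaling to the same summed FPKM moved the median log2 fold change of all genes from -0.13 to -0.28 in PC3 and from -0.026 to -0.16 in DU145 against BPH-1, and dividing out the GC trend moved it to -0.19 and -0.13.

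Among values called in either fit, direction turned only under the GC corrections, given as log2 fold change with the GC trend, then with the GC and length trends, divided out. In PC3 against BPH-1 these were GINS1 (0.10 and 0.0028), UBE2C (-0.30 and -0.51) and FOXM1 (-0.43 and -0.45), and in DU145 against BPH-1 MCM3 (-0.53 and -0.60), MCM5 (-0.60 and -0.49) and BIRC5 (-0.34 and -0.45). With a replicate block 3 members were higher and 31 lower in PC3 against BPH-1, 2 and 27 in DU145 against BPH-1, and 5 and 3 in PC3 against DU145. The deviations of same-numbered libraries correlated from -0.65 to 0.51 over 12 pairs, and those of differently numbered ones from -0.66 to 0.70 over 36. The ranges overlap, so these values do not show whether equal numbers pair the libraries.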
